A study of Arabidopsis thaliana with 15 samples.

Results

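The genes described here carry the ribosomal protein symbols RPL or RPS followed by a digit in the deposited annotation of Arabidopsis thaliana, lie on chromosomes 1 to 5 and code for protein. There were 249 of them among 33024 genes in the table, after 4 immune receptor genes with look-alike symbols were left out. They encode proteins of 3 different ribosomes: 206 belong to the cytosolic ribosome, 33 to the plastid ribosome and 7 to the mitochondrial ribosome. For RPS16-2 (AT5G56940) and RPS7 (AT2G07696) the organelle could not be settled from the annotation. RPS4B (AT5G45060) meets the symbol rule but is described by RefSeq as a disease resistance protein of the TIR-NBS-LRR class, so it is named separately and counted in no ribosome. RNA was taken from leaves of plants of the Columbia background, 21 days after germination and grown in a greenhouse, in 5 genotypes with 3 libraries each: wild type, topp4-1, pp1r3-2, the double mutant that joins these alleles, and topp-7m, a septuple topp mutant. The series asks how the TOPP genes, which encode catalytic subunits of type 1 protein phosphatase, relate genetically to their regulatory subunit PP1R3. The labels do not name the TOPP genes combined in topp-7m. Nor do they state that the 3 libraries per genotype are from different plants or pools, and p-values here cover only library-to-library spread, part of which may be technical.

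Total counts per library ran from 17962200 to 20756997. TOPP4 itself was counted at 30.8 ± 1.83 CPM in wild type, 36.8 ± 1.90 in topp4-1, 30.6 ± 2.73 in the double mutant, 30.0 ± 1.65 in pp1r3-2 and 5.44 ± 0.342 in topp-7m (mean ± SD, n = 3; CPM is a gene's count relative to the scaled size of its library), so its transcript was not lower in topp4-1 (log2 fold change 0.26, adjusted p = 0.0224). No row of the table carries the symbol PP1R3, and that gene was not analysed here. The double mutant's replicate 3 stood apart from its other libraries: the median of its cytosolic genes, as log2 CPM minus the wild-type mean, was -0.57 against -0.03 and -0.14, and results that rest on it are given with and without it.

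Ribosomes join amino acids into protein in 3 compartments of a leaf cell. The cytosolic ribosome translates nuclear messages and is built from a large and a small subunit whose proteins are each encoded by a small family of near-equivalent nuclear genes (paralogues), while the plastid ribosome, of bacterial type, translates the core proteins of the photosystems and the large subunit of Rubisco. Part of the plastid and mitochondrial ribosomal proteins are encoded in the organelle genomes and were left out by the rule. The plastid and mitochondrial genes below are thus nuclear, and only those with RPL or RPS symbols. Other nuclear genes for such proteins carry other names and fall outside the rule. In plants, as in animals and yeast, synthesis of ribosomal proteins follows growth, and S6 kinase, which the TOR kinase activates, phosphorylates the small-subunit protein RPS6.

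A pair of short sequence motifs is known from the promoters of Arabidopsis ribosomal protein genes: the telo box, AAACCCTA, and the site II element, searched here as TGGGCC or TGGGCT. Both strands of the 250 bases before each annotated start were searched. Site II matches stood in 140 of 206 cytosolic promoters (68.0%), in 12 of 33 plastid promoters (36.4%) and in 2 of 7 mitochondrial promoters (28.6%), against 5259 of 27419 promoters of all nuclear protein-coding genes (19.2%). Telo boxes stood in 47 cytosolic promoters (22.8%) and 5 plastid promoters (15.2%), against 4.47% of all promoters. Windows from 8 genes, with starts from the RefSeq annotation, are printed 5′ to 3′ from the TAIR10.1 assembly, with matches of either motif in capitals; site II matches on opposite strands can overlap. RPS9B and RPS9C, RPL7B and RPL7D, and RPL19B and RPL19C are shown as the pairs, among the 6 families whose paralogues differed most in topp4-1, in which 1 paralogue was called higher there, and plastid RPL5 and RPL11 because they had the lowest log2 fold changes there.
RPS9B AT5G15200, chr5:4936430-4936679, minus strand: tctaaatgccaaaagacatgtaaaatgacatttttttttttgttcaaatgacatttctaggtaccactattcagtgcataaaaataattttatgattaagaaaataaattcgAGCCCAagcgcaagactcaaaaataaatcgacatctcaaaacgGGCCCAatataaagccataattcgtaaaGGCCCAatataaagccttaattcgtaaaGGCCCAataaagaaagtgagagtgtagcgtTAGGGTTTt
RPS9C AT5G39850, chr5:15949660-15949909, plus strand: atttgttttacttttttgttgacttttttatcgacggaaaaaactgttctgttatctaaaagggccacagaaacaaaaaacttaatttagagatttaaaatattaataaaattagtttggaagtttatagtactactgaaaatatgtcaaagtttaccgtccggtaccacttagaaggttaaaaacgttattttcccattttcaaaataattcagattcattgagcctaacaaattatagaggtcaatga
RPL7B AT2G01250, chr2:134456-134705, minus strand: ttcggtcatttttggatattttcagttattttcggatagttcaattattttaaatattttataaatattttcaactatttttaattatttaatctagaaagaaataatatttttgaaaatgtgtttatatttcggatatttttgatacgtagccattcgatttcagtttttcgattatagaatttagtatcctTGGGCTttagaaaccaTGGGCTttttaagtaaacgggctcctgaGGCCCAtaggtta
RPL7D AT3G13580, chr3:4432797-4433046, plus strand: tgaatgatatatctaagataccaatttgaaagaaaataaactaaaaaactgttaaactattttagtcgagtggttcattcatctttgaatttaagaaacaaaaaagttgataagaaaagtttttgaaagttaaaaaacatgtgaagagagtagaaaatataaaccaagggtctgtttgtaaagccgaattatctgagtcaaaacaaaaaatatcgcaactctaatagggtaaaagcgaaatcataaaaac
RPL19B AT3G16780, chr3:5708576-5708825, plus strand: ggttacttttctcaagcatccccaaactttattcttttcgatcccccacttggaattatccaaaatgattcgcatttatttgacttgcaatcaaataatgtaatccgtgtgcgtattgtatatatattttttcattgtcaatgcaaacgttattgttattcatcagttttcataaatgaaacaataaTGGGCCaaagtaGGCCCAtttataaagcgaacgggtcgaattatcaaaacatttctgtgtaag
RPL19C AT4G02230, chr4:980699-980948, minus strand: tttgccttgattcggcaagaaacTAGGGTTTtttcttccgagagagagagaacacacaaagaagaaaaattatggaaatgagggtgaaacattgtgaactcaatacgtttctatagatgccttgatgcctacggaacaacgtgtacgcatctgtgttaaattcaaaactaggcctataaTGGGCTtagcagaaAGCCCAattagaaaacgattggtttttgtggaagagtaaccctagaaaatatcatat
RPL5 AT4G01310, chr4:545567-545816, minus strand: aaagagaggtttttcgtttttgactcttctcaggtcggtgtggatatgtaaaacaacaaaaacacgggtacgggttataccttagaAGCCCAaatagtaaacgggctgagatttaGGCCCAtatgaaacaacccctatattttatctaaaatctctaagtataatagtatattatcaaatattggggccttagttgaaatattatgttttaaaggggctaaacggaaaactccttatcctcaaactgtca
RPL11 AT1G32990, chr1:11955406-11955655, plus strand: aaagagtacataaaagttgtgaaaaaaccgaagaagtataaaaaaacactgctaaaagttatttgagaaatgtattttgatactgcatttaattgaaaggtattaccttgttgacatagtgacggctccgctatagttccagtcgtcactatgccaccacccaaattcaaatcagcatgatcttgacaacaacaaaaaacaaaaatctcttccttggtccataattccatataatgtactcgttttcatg
Of these windows, that of RPS9B held a telo box and 4 site II matches, RPL7B held 3 site II matches, and RPL19B and plastid RPL5 held 2 each. RPL19C held a telo box and 2 site II matches. RPS9C, RPL7D and plastid RPL11 held neither set of letters, which says only that these letters are absent from this window. Of the 4 cytosolic genes called higher in topp4-1, RPL19C thus held both motifs, RPL18AA, not printed, held 1 site II match, and RPS9C and RPL7D held none.

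Among the 249 genes, 230 had enough counts to be tested: 190 cytosolic, 31 plastid, 7 mitochondrial, RPS16-2 and RPS4B. Of the 19 not tested, 11 were listed at 0 in every library, and the highest total of the other 8 was 39 counts over 15 libraries. A filter that keeps genes with counts cannot be read as showing that those left out are silent. Levels per kilobase of transcript were high: the median over libraries and genes was 171 CPM per kb for the cytosolic genes, 222 for the plastid genes and 15.1 for the mitochondrial genes, against 9.84 for all genes tested. The highest levels were those of plastid RPS16-1 at 904 CPM per kb and, in the cytosolic ribosome, RPL14B at 829 and RPL19A at 640. At the other end, RPS2B (AT1G58684) and RPS2B (AT1G59359) lay at 0.594 and 0.623 CPM per kb and RPS8B at 1.02. The annotated transcripts of those RPS2B copies share every 50-base stretch with another copy, so their counts are uncertain singly. Such sharing affected over 20% of the transcript in 19 tested cytosolic and 4 tested plastid genes.

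In topp4-1 leaves the genes of the plastid ribosome fell together. Of 31 plastid genes, 30 fell against wild type, with a median log2 fold change of -0.97. The fall took in the large subunit (22 of 23 genes, median -1.01) and the small subunit (8 of 8, median -0.92). Over all 20037 genes tested, 26.5% were called lower and the median was 0.01. A call means an adjusted p under 0.05 by the edgeR quasi-likelihood fit, with p-values adjusted over all genes tested by the Benjamini-Hochberg method; 53.5% of all genes were called in either direction.

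**Figure D1:**
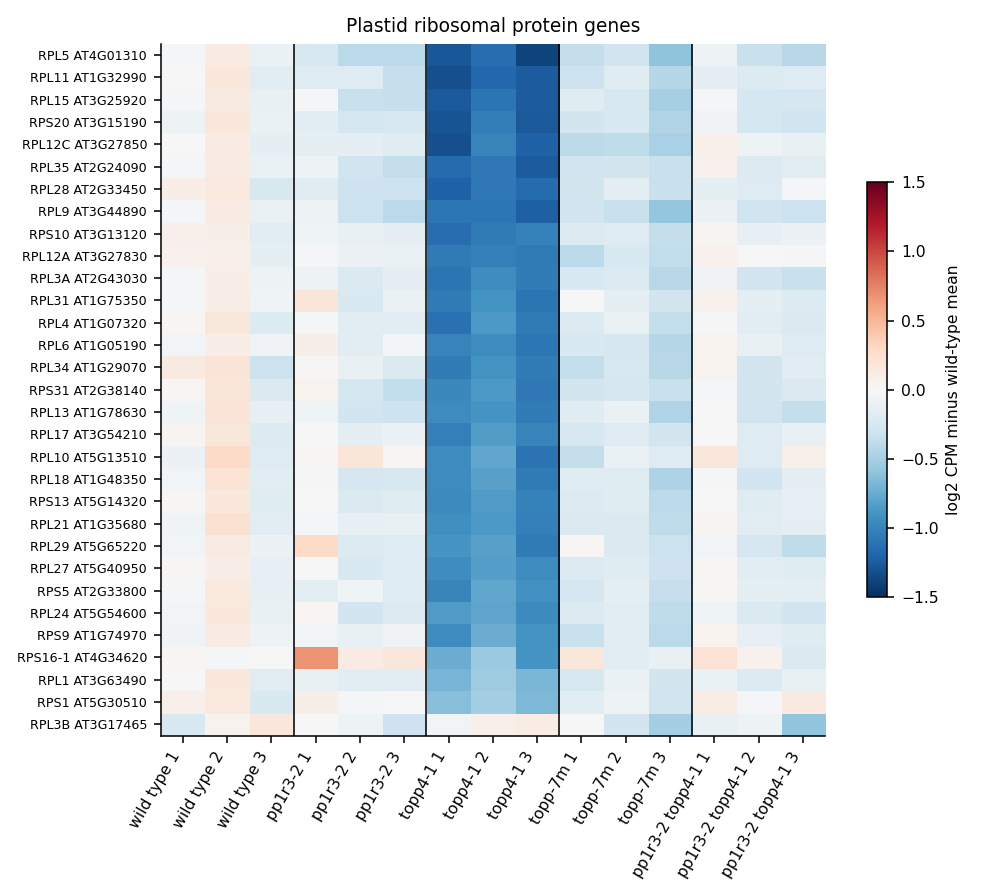
Levels of the 31 tested plastid ribosomal protein genes in each library, as log2 CPM minus the wild-type mean, with rows ordered by their mean in topp4-1 and columns grouped by genotype. The 3 topp4-1 columns are blue in every row but RPL3B, and the double mutant columns return to pale colours.

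RPL5 (AT4G01310), whose bacterial counterpart binds 5S ribosomal RNA, was counted at 324, 360 and 309 CPM in the wild-type libraries and at 136, 149.7 and 126 in topp4-1. It was at 249 to 280.2 in pp1r3-2, 248 to 314 in the double mutant and 217 to 269 in topp-7m, and no topp4-1 library reached any library of another genotype. Its log2 fold change in topp4-1 was -1.27 ± 0.12 (SE; adjusted p = 4.27e-07), the lowest of the plastid genes. RPL11 (AT1G32990), a protein of the factor-binding site of the large subunit, had 197, 219 and 174 CPM in wild type and 78.8, 86.8 and 82.7 in topp4-1, a log2 fold change of -1.25 ± 0.10 (adjusted p = 9.61e-08). RPL12 forms the flexible stalk that recruits elongation factors in bacteria. For RPL12C (AT3G27850) the libraries gave 321, 351 and 293 CPM in wild type against 128, 159.9 and 138 in topp4-1. Both tested plastid RPL12 genes fell, RPL12C by 1.18 and RPL12A (AT3G27830) by 1.05 on the log2 scale, and parts of their transcripts are shared (24.8% and 28.1% of 50-base stretches).

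Among small-subunit proteins, RPS20 (AT3G15190) had 202, 239.9 and 199 CPM in wild type and 86.6, 104 and 88.5 in topp4-1. RPS10 (AT3G13120), a protein of the subunit's head, had 247, 249 and 208 CPM in wild type and 106, 112 and 116 in topp4-1. These log2 fold changes were -1.20 ± 0.11 (adjusted p = 3.51e-07) and -1.08 ± 0.09 (adjusted p = 2.23e-07), and the groups did not overlap for either gene. The most abundant gene, RPS16-1 (AT4G34620), fell less, by 0.72 ± 0.15 (adjusted p = 0.001), from 638 to 663 CPM in wild type to 353 to 441 in topp4-1. The only plastid gene without a call was RPL3B (AT3G17465), picked out after its values were seen, at 30.5, 37.1 and 40.3 CPM in wild type and 34.8, 37.7 and 38.6 in topp4-1 (log2 fold change 0.04 ± 0.15, adjusted p = 0.831). It was also the gene with the lowest level per length of the plastid set, at 23.1 CPM per kb, and it overlaps another gene on the same strand. Its plastid label rests on the annotation alone, and that level lies within the range of the mitochondrial genes, 12.3 to 38.0 CPM per kb. The other annotated plastid L3 gene, RPL3A (AT2G43030), fell by 1.03 ± 0.10 on the log2 scale (adjusted p = 6.68e-07).

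For 30 of 31 plastid genes every topp4-1 library lay below every wild-type library, a pattern met in 31.4% of all genes tested. Summed over the 31 plastid genes, their share of all scaled counts was 0.925%, 1.02% and 0.8495% in wild type and 0.468%, 0.514% and 0.456% in topp4-1. The count of 30 lower held whichever library was left out. Nuclear genes for photosynthesis moved with this set in topp4-1: 11 of 12 listed leaf photosynthesis markers were lower, where 26.5% of all genes were called lower. Their summed level was 40863 to 53087 CPM in wild type and 24881 to 28737 in topp4-1, with none at 0 in any library. In the other mutants the marker and plastid medians against wild type had opposite signs. They were 0.23 and -0.14 in pp1r3-2, 0.18 and -0.26 in topp-7m, and 0.255 and -0.13 in the double mutant. The markers' part in the result was not tested. In RNA from whole leaves, fewer cells of a type and less RNA per cell cannot be told apart.

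**Figure D2:**
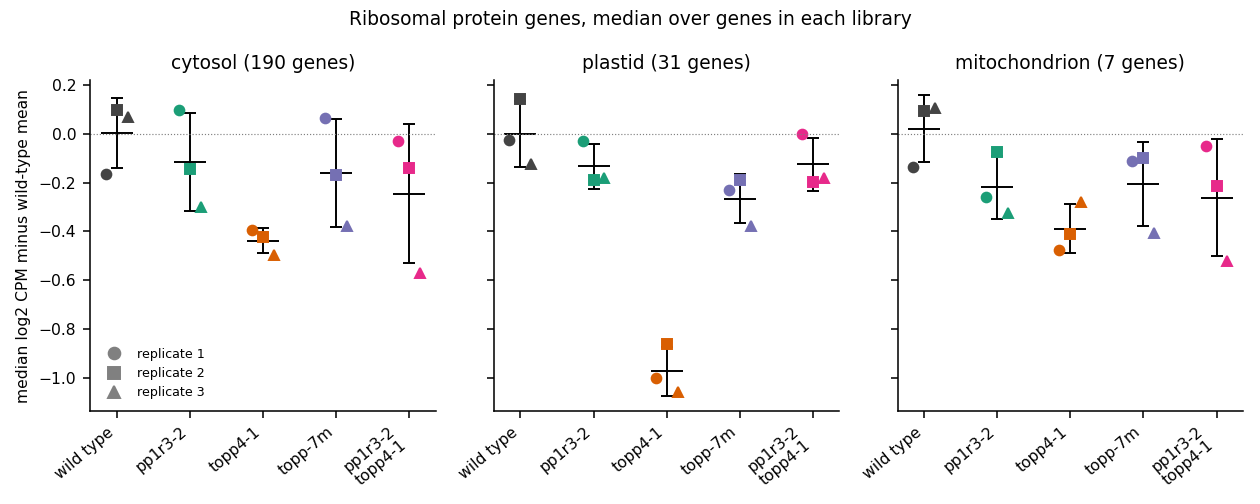
Median over genes of log2 CPM minus the wild-type mean in each library (points), with the mean and SD of the 3 libraries (line and bar), for cytosolic, plastid and mitochondrial genes. Plastid medians of topp4-1 lie between -1.06 and -0.86, below every other library, whereas the cytosolic median of the double mutant's replicate 3, -0.57, lies below all topp4-1 libraries.

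Genes of the cytosolic ribosome also fell in topp4-1. Of 190 tested, 117 fell, 4 rose and 69 did not pass the test, with a median log2 fold change of -0.44, where 26.5% of all genes were called lower and 27.0% higher. Among the 104 large-subunit genes 68 were lower and 3 higher (median -0.49), and among the 86 small-subunit genes 49 were lower and 1 higher (median -0.39). All 3 topp4-1 libraries lay below all 3 wild-type libraries for 146 genes, against the 31.4% of all genes given above. The summed share of cytosolic genes was 3.46%, 4.13% and 4.04% of scaled counts in wild type and 2.99%, 2.96% and 2.81% in topp4-1. Leaving out 1 library at a time gave 82 to 133 cytosolic genes lower. By mean level, the lowest 48 of these genes had a median of -0.47 with 23 lower, and the highest 48 a median of -0.40 with 28 lower. By promoter letters, the median was -0.44 for the 129 tested genes with a site II match and -0.45 for the 52 with neither motif.

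RPL24A (AT2G36620), a protein that helps bridge the subunits, was counted at 177, 203 and 212 CPM in wild type and at 108, 109 and 101 in topp4-1. The groups did not overlap, and its log2 fold change was -0.90 ± 0.17 (adjusted p = 0.000476). RPL19B (AT3G16780), of a family that forms another bridge, had 68.5, 87.6 and 90.9 CPM in wild type and 46.0, 52.5 and 46.0 in topp4-1, a log2 fold change of -0.77 ± 0.15 (adjusted p = 0.000409). The lowest value among called cytosolic genes was that of the weakly expressed RPS11B (AT4G30800), -1.11 ± 0.29 (adjusted p = 0.00457), at a mean of 6.64 CPM over all libraries. Among the most abundant, RPS23B fell by 0.54 and RPL37AC by 0.61, while RPL14B (-0.13, adjusted p = 0.464) did not pass the test. RPL19A (-0.33, adjusted p = 0.0626) passed only in some fits: with the replicate block (0.0366), with only the libraries compared (0.0195), without wild-type replicate 1 (0.0363) and with DESeq2 (0.0323).

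RPS6, the substrate of S6 kinase, is encoded by RPS6A and RPS6B. RPS6A (AT4G31700) had 301, 382 and 366 CPM in wild type and 230.1, 225 and 205 in topp4-1. RPS6B (AT5G10360) had 362, 420.5 and 409 CPM in wild type and 349.9, 336 and 335 in topp4-1. Neither pair of groups overlapped, and RPS6A changed by -0.67 ± 0.15 (adjusted p = 0.00159) where RPS6B gave -0.22 ± 0.11 (adjusted p = 0.0973), which passed with DESeq2 (adjusted p = 0.0472) and without wild-type replicate 1 (adjusted p = 0.0464). RPS6A made up 47.0% ± 1.22 of the family's length-scaled level in wild type and 39.5% ± 1.13 in topp4-1 (SD, n = 3).

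Genes of dividing cells moved with the cytosolic set. In topp4-1, 26.5% of all genes were called lower and 27.0% higher. Of 13 listed markers, among them subunits of the replication helicase and the sliding clamp, 8 fell there and none rose. Their summed level was 173, 235 and 275 CPM in the wild-type libraries, 93.7, 85.3 and 107 in topp4-1, and 200.2, 191 and 80.7 in the double mutant, with no marker at 0 in any library. In topp-7m it was 236, 222 and 125 CPM, and in pp1r3-2 149, 185 and 118. In 4 of the 5 genotypes the library with the lowest marker sum also had the lowest cytosolic median: wild-type replicate 1 and replicate 3 of pp1r3-2, topp-7m and the double mutant. In topp4-1 it did not, since replicate 3 had the highest marker sum (107) and the lowest cytosolic median (-0.50, against -0.39 and -0.42). The library with the highest marker sum also had the highest cytosolic median in topp-7m and the double mutant, replicate 1 of each. In wild type, pp1r3-2 and topp4-1 it did not. The markers' part in the result was not tested. Among 9 flower and meristem markers 2 were tested. Of these, PI, a floral organ identity gene, rose in topp4-1 by 4.48 ± 0.58 on the log2 scale (adjusted p = 1.26e-05). The summed level of the list was 3.27 to 6.11 CPM in wild type and 8.05 to 17.1 in topp4-1. In each of these libraries 1 to 4 of its genes were at 0. Flower marker calls were not confined to topp4-1. Against wild type, the double mutant and pp1r3-2 each also had 1 of the 2 tested markers higher, whereas topp-7m had no call. Double mutant libraries summed to 10.9, 14.9 and 3.11 CPM. Those of pp1r3-2 gave 10.7, 12.8 and 6.09 CPM, and those of topp-7m 11.3, 8.45 and 8.27, with 3 to 7 genes at 0. Of 5 root markers 2 were tested and neither was called, with sums of 104 to 292 CPM in wild type and 231 to 262 in topp4-1 and 2 or 3 genes at 0.

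A few cytosolic genes went the other way in topp4-1. RPS9C (AT5G39850) encodes a copy of a small-subunit protein known in yeast for its part in decoding accuracy. It was counted at 12.1, 12.6 and 11.6 CPM in wild type and at 30.3, 29.4 and 22.3 in topp4-1, above every other library of the study. Its log2 fold change was 1.18 ± 0.13 (adjusted p = 1.89e-06). RPL7D (AT3G13580) had 90.9, 90.1 and 92.1 CPM in wild type, 126, 125 and 121 in topp4-1, and 128, 113 and 119 in pp1r3-2. The topp4-1 and pp1r3-2 libraries all lay above wild type, with log2 fold changes of 0.45 ± 0.08 (adjusted p = 0.000351) and 0.40 ± 0.08 (adjusted p = 0.00351) against the same wild-type libraries.

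**Figure D3:**
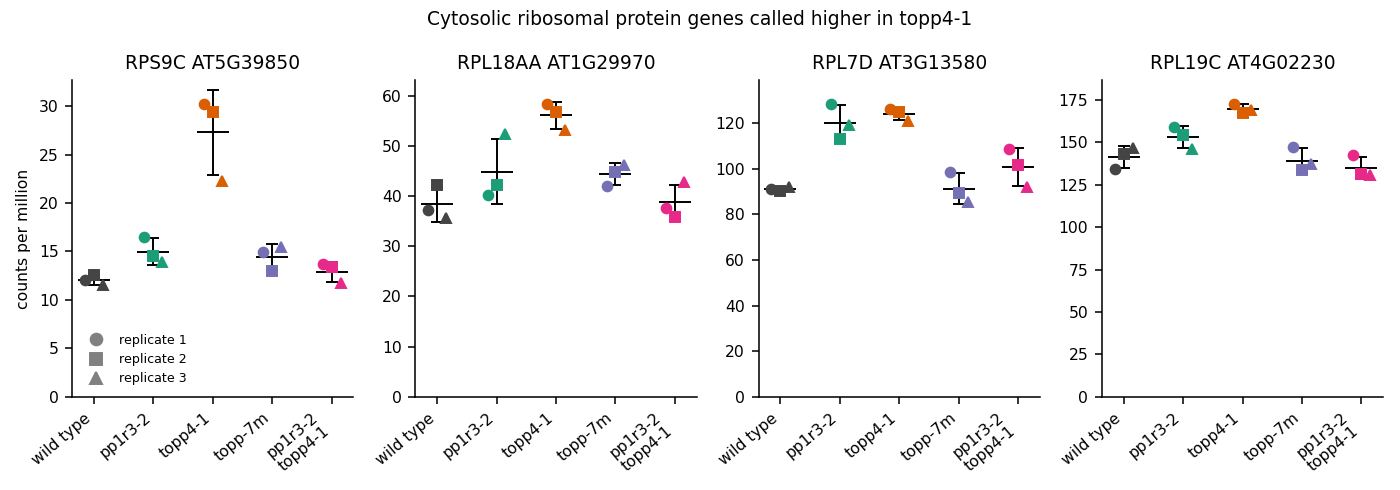
CPM in each library (points) with mean and SD (line and bar) for the 4 cytosolic ribosomal protein genes called higher in topp4-1. RPS9C lies at 22.3 to 30.3 in topp4-1 and at 11.6 to 16.5 in all other libraries, while RPL7D is also high in pp1r3-2.

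RPL18AA (AT1G29970) rose by 0.55 ± 0.10 on the log2 scale (adjusted p = 0.00039), from 37.2, 42.3 and 35.6 CPM to 58.4, 56.8 and 53.2. It overlaps RPL18AA (AT1G29965) on the same strand and shares 52.1% of its 50-base stretches with it, so the pair is uncertain singly. RPL19C (AT4G02230) rose by 0.26 ± 0.08 (adjusted p = 0.00918), from 134, 143 and 147 CPM to 173, 167 and 169. Without wild-type replicate 1 it no longer passed (0.20, adjusted p = 0.0644), and the gene overlaps one on the other strand, which the counting may not separate.

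Log2 fold changes of paralogues thus differed in size and for some in sign, though no difference between paralogues was tested. Among the 68 cytosolic families with at least 2 tested members, the median difference between the highest and the lowest log2 fold change in topp4-1 was 0.36. It was under 0.3 in 28 families and over 1 in 3. Such a width is positive by construction and grows with family size and with noise. The widest were RPS9, RPS2, RPL19, RPL7, RPS15A and RPS19. In RPS9, RPS9C held 2.70% ± 0.217 of the family's length-scaled level in wild type and 6.95% ± 0.664 in topp4-1, while RPS9B (AT5G15200), which holds the rest, gave a log2 fold change of -0.27 ± 0.16 (adjusted p = 0.164; 0.0498 with only the libraries compared). In RPL7, the share of RPL7D was 14.2% ± 1.95 in wild type, 19.2% to 20.8% in pp1r3-2 and 23.4% ± 0.334 in topp4-1, and RPL7B (AT2G01250) fell by 0.50 ± 0.14 in topp4-1 (adjusted p = 0.00668). Within RPL19, RPL19C went from 16.5% ± 1.01 to 23.4% ± 0.565 and RPL19B from 7.85% ± 0.596 to 5.47% ± 0.468. In RPS19, a protein of the small subunit's head, RPS19A gave -0.13 (adjusted p = 0.429) and RPS19B fell by 0.96 ± 0.27 (adjusted p = 0.00849). In RPS15A, RPS15AD gave 0.02 (adjusted p = 0.919) and RPS15AB fell by 0.87 ± 0.22 (adjusted p = 0.00311). RPS15AB had a mean of 5.67 CPM over all libraries, against 88.6 for RPS15AD. RPS15AB is counted as cytosolic from its annotation alone, so this width may not compare proteins of the same ribosome. For RPS2 the width rests on the RPS2B copy AT1G59359 (1.03 ± 0.62, adjusted p = 0.176), at 0.802 CPM over all libraries, against RPS2C (-0.34, adjusted p = 0.066), which was called lower with the replicate block (0.0278), with only the libraries compared (0.00566) and with DESeq2 (0.0394). By rank within the family, 41 of 68 most abundant paralogues fell (median -0.41) and 70 of 116 others (median -0.45). Among all genes 26.5% were called lower.

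**Figure D4:**
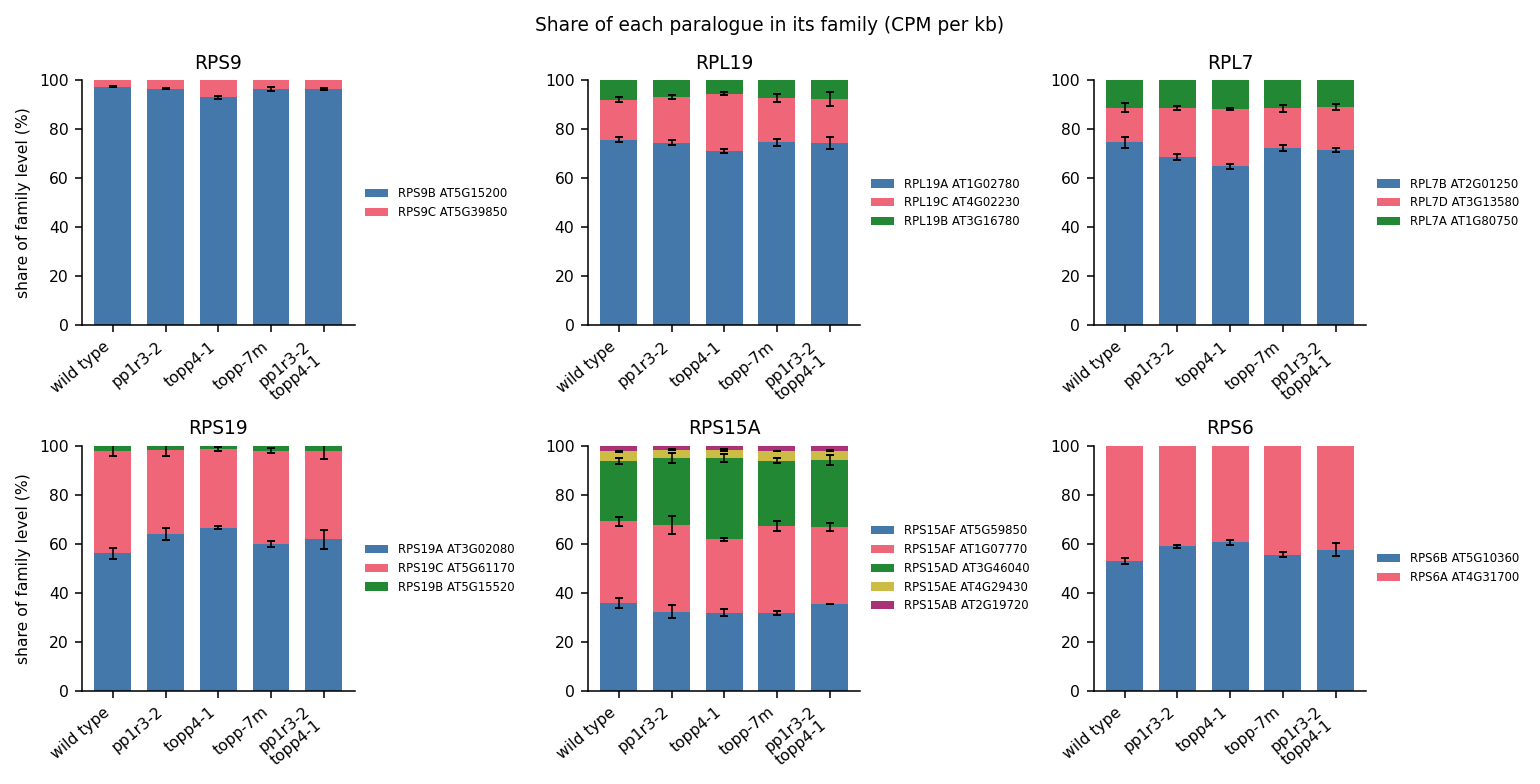
Share of each paralogue in the length-scaled level (CPM per kb) of its family, as the mean of 3 libraries per genotype with the SD drawn at the top of each segment but the last. RPS9C grows from 2.70% to 6.95% and RPL7D from 14.2% to 23.4% between wild type and topp4-1.

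The mitochondrial genes had the lowest median transcript level of the 3 sets, and 4 of 7 tested fell in topp4-1 (median -0.41), where 26.5% of all genes were called lower. RPS13 (AT1G77750) had 17.8, 22.5 and 21.4 CPM in wild type and 13.0, 11.1 and 10.6 in topp4-1, with a log2 fold change of -0.83 ± 0.23 (adjusted p = 0.00628). RPS2 (AT3G03600) had 21.4, 21.7 and 25.8 CPM in wild type, 16.95, 17.07 and 17.96 in pp1r3-2, 16.0, 13.8 and 12.8 in topp4-1, 17.6, 16.2 and 17.4 in topp-7m, and 16.7, 16.9 and 12.5 in the double mutant. All 12 mutant libraries lay below all wild-type libraries. It was called lower in each of these comparisons with the same wild-type libraries, by 0.41, 0.69, 0.43 and 0.58 on the log2 scale in that order. The double mutant call was lost when only the libraries compared were fitted (-0.56, adjusted p = 0.0565). The pp1r3-2 and topp-7m calls rest on the full set: without wild-type replicate 3 they became -0.32 (adjusted p = 0.139) and -0.34 (adjusted p = 0.156), both were also lost without any 1 of their own mutant libraries, and the topp-7m call without wild-type replicate 2 as well (adjusted p = 0.057). RPS10 (AT3G22300) and RPS9M (AT3G49080) fell by 0.45 and 0.41 in topp4-1 and lost the call without wild-type replicate 3 (adjusted p = 0.0541 and 0.0885), and RPS9M also without wild-type replicate 2 (0.117) or topp4-1 replicate 1 (0.0843) or 2 (0.0677). RPS19 (-0.01), RPS14 (0.04) and RPL21M (0.05) had no call, and RPS16-2, of unsettled organelle, gave -0.39 ± 0.16 (adjusted p = 0.0454), a call lost in 4 of 6 fits without 1 library.

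In pp1r3-2 leaves few of these genes passed the test. Against wild type, 2 of 230 were higher and 2 lower, with a median of -0.12, where 10.9% and 8.33% of all genes were called higher and lower. The pair that rose was RPL7D, described above, and RPS4B, the resistance-type gene, which had 61.3, 52.5 and 49.1 CPM in wild type and 80.2, 73.1 and 84.6 in pp1r3-2 (0.55 ± 0.11, adjusted p = 0.00297). Those that fell were mitochondrial RPS2 and plastid RPL5, the latter at -0.35 ± 0.12 (adjusted p = 0.0442), a call lost without wild-type replicate 1, 2 or 3 or pp1r3-2 replicate 2 or 3 (adjusted p 0.0576 to 0.165). Every pp1r3-2 library lay above every wild-type library for 5 of the 230 genes and below for 20, where 17.9% and 16.1% of all genes did so. The number lower was 0 without pp1r3-2 replicate 2 or 3, 4 without pp1r3-2 replicate 1, and 1 when wild-type replicate 2 was left out. The plastid median was -0.14 and the cytosolic median -0.12.

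In topp-7m, 8 genes were lower and none higher, where 5.46% and 6.18% of all genes were called; with DESeq2 15 were lower and none higher, and 40 had an unadjusted p under 0.05 by edgeR. The 8 were plastid RPL12C, RPL12A, RPL11, RPL9 and RPL5, mitochondrial RPS2, and cytosolic RPL31B and RPS30A. Of these, RPL31B alone kept its call in all 6 fits without 1 library. RPS30A (adjusted p = 0.0492) lost it in 5 of them (0.0634 to 0.195), all but that without topp-7m replicate 1. It also lost it with RLE size factors (0.0508), with no filter (0.057) and with only the libraries compared (0.077). RPL11 lost its call in 4 fits, RPL9 and RPL12A in 3 and RPL5 in 2, each time including the fit without wild-type replicate 2. RPL31B (AT4G26230) was counted at 87.0, 97.3 and 98.6 CPM in wild type and at 67.4, 49.7 and 51.0 in topp-7m. The groups did not overlap, and the log2 fold change was -0.75 ± 0.14 (adjusted p = 0.00204), the largest change among the 8 called. RPL31B overlaps a gene on the other strand. RPL12C went from 321, 351 and 293 CPM in wild type to 244, 246 and 229.7 in topp-7m (-0.42 ± 0.10, adjusted p = 0.0114), a call lost without wild-type replicate 2 (adjusted p = 0.0601). All 31 plastid genes had a negative value in topp-7m, with a median of -0.26. So did 176 of 190 cytosolic genes (median -0.16), against 9981 of all 20037 genes tested. In 19 plastid genes every topp-7m library lay below every wild-type library, where 13.7% of all genes did so. Without wild-type replicate 2 no plastid gene was called (8 with an unadjusted p under 0.05), and without wild-type replicate 3 there were 8. Over all genes here the number lower was 1 without wild-type replicate 2, 5 without topp-7m replicate 1 and 2 without topp-7m replicate 3.

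**Figure D5:**
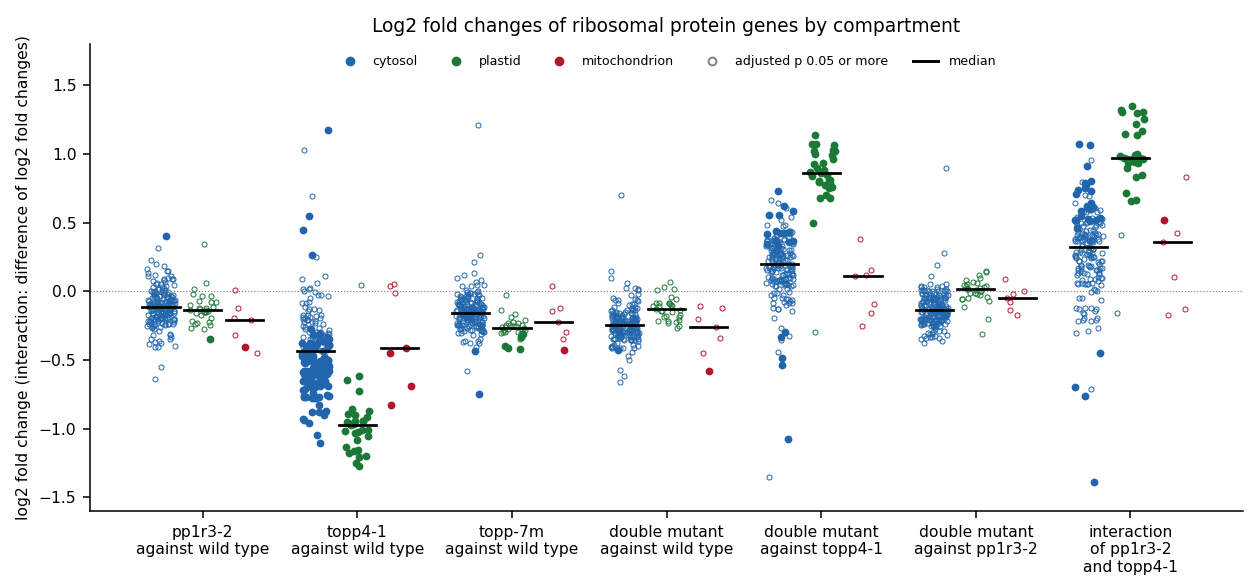
Log2 fold change of every tested gene in the 7 comparisons, for cytosolic (190 genes), plastid (31) and mitochondrial (7) genes; filled points passed an adjusted p of 0.05 and black lines mark medians. The plastid genes fall to a median of -0.97 in topp4-1 against wild type and rise by 0.86 in the double mutant against topp4-1.

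Adding pp1r3-2 to topp4-1 went with higher plastid genes than topp4-1 alone. In the double mutant, plastid RPL5 was at 314, 262 and 248 CPM, RPL11 at 179, 170.3 and 172, and RPL12C at 338, 304 and 298. Against topp4-1, 30 of 31 plastid genes rose, with a median of 0.86, where 21.4% of all genes were called higher and 21.9% lower, 43.3% in all. The highest were RPL12C at 1.14 ± 0.10 (adjusted p = 4.5e-07), RPL11 at 1.07 ± 0.10 (adjusted p = 6.27e-07) and RPL12A at 1.07 ± 0.09 (adjusted p = 2.33e-07). The exception was again RPL3B, which was not called (-0.29, adjusted p = 0.125). For 30 plastid genes all double mutant libraries lay above all topp4-1 libraries and for 1 below, where 24.9% and 29.6% of all genes did so. This count of 30 held in every fit without 1 library. The same topp4-1 libraries gave the fall against wild type, so that fall and the rise here are not independent. The leaf photosynthesis markers moved with this set here too: 12 of 12 rose, with sums of 50080 to 57043 CPM in the double mutant against 24881 to 28737 in topp4-1, none at 0, and their part in the result was not tested. Against wild type, no plastid gene of the double mutant was called and the median was -0.13.

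The cytosolic genes of the double mutant depended on the library. Against topp4-1, 15 of 190 rose and 5 fell, with a median of 0.20, both smaller shares than the 21.4% higher and 21.9% lower among all genes. Without the double mutant's replicate 3, 87 rose and 5 fell (median 0.35), and without its replicate 1, 1 rose and 6 fell (median 0.08). Without topp4-1 replicate 1, 2 or 3 the number that rose was 4, 3 and 3, and without the double mutant's replicate 2 it was 2. Those libraries' cytosolic medians, relative to wild type, were -0.03, -0.14 and -0.57 for replicates 1, 2 and 3 of the double mutant, and -0.39 to -0.50 in topp4-1. RPL24A shows this in CPM, with 196, 169 and 110.4 in the double mutant and 101 to 109 in topp4-1; its log2 fold change was 0.58 ± 0.17 (adjusted p = 0.0129). The 5 that fell were RPS9C, RPL18AA, RPL39B, RPL19C and RPL7D. All but RPL39B had been called higher against wild type from the same topp4-1 libraries. RPS9C dropped to 13.7, 13.4 and 11.7 CPM, beside 11.6 to 12.6 in wild type, a log2 fold change of -1.08 ± 0.13 against topp4-1 (adjusted p = 6.04e-06). RPL39B (AT3G02190), a protein of the exit tunnel, had 28.7, 26.0 and 19.1 CPM in the double mutant against 35.9, 35.1 and 32.2 in topp4-1 (-0.48 ± 0.13, adjusted p = 0.00638). No mitochondrial gene was called in this comparison.

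Against wild type, the double mutant had 1 gene higher (RPS4B) and 2 lower (mitochondrial RPS2 and RPL39B) of 230, where 7.66% and 5.47% of all genes were called higher and lower. RPL39B, at 30.4, 33.3 and 35.4 CPM in wild type, gave -0.43 ± 0.13 (adjusted p = 0.0387), a call lost without wild-type replicate 2 or 3 or double mutant replicate 2 or 3 (adjusted p 0.0599 to 0.165). RPS4B gave 0.39 ± 0.11 (adjusted p = 0.0287), lost without wild-type replicate 2 or 3 or double mutant replicate 3 (adjusted p 0.0997 to 0.14). The number lower was 9 without double mutant replicate 1, 5 without wild-type replicate 1 and 1 without any other library. Against pp1r3-2, none of the 230 was called by edgeR or DESeq2, and 5 had an unadjusted p under 0.05; over all genes 0.0349% were called. Every double mutant library lay above every pp1r3-2 library for 2 of the 230 and below for 5, where 5.08% and 5.53% of all genes did so. The medians in that comparison were -0.14 for cytosolic and 0.02 for plastid genes.

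The interaction term asks whether topp4-1 acted differently with and without pp1r3-2; from the topp4-1 effect measured among pp1r3-2 plants it subtracts that measured without the pp1r3-2 allele. Of 31 plastid genes, 29 had a higher value (median 0.97), where 19.0% of all genes were called higher and 19.3% lower. The highest was RPL5 at 1.35 ± 0.16 (adjusted p = 1.56e-05). Not called were RPL3B (-0.16, adjusted p = 0.583) and the most abundant plastid gene, RPS16-1 (0.41, adjusted p = 0.149). Among cytosolic genes 24 were higher and 4 lower, and the number higher moved by over 1.5 times without any 1 of the 12 libraries, from 5 without double mutant replicate 1 or wild-type replicate 2 to 87 without double mutant replicate 3. The 4 lower were RPS9C (-1.39 ± 0.18, adjusted p = 2.73e-05), RPL18AA (-0.76 ± 0.15), RPL7D (-0.70 ± 0.12) and RPL19C (-0.45 ± 0.11), the same genes that rose in topp4-1. These 4 remained lower in every fit without 1 library. The interaction term holds the topp4-1 change against wild type with its sign reversed, from the same libraries. Genes called in topp4-1 thus tend to appear here with the opposite sign, plastid genes included, which is no separate support. RPL7D was at 108, 101 and 92.0 CPM in the double mutant, below pp1r3-2 (113 to 128) and topp4-1 (121 to 126) and from just under the highest wild-type library, 92.1, upwards.

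Genes with related tasks were counted from lists, to be read against the 27.0% of all genes called higher and 26.5% called lower in topp4-1. The acidic stalk and RPSA proteins of the cytosolic ribosome, whose symbols fall outside the rule, were counted in topp4-1 too: 9 of 14 tested fell and none rose (median -0.47), led by the stalk genes RPP1B (-0.88 ± 0.14, adjusted p = 7.95e-05) and RPP3A (-1.29 ± 0.24, adjusted p = 0.000421). A further 100 tested genes with a ribosomal protein in their RefSeq product name gave 38 lower and 6 higher (median -0.23). The 5 of these with the smallest adjusted p all fell: AT1G68590 (PSRP-3, a plastid-specific protein) by 1.19, AT5G47190 and AT4G17560 (L19 family) by 1.20 and 1.05, GHS1 (S21 family) by 1.10 and PSRP6 (plastid-specific) by 0.99.

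Translation factors were mixed in topp4-1, with 13 of 29 lower and 3 higher (median -0.12), where 26.5% of all genes were called lower and 27.0% higher. RACK1B, a scaffold on the small subunit, fell from 87.3 ± 7.75 to 42.4 ± 4.25 CPM (-1.04 ± 0.16, adjusted p = 7.1e-05), and PAB4, a poly-A binding protein, fell by 0.72. ELF5A-3, an elongation factor 5A, rose by 1.01 ± 0.13 (adjusted p = 1.47e-05) and TCTP1 rose from 1019 ± 38.8 to 1605 ± 79.4 CPM (0.66 ± 0.10, adjusted p = 5.06e-05). Of 37 tested ribosome biogenesis factors, which assemble the subunits, 4 fell and 7 rose (median -0.06), both smaller shares than among all genes; the large AAA ATPase gene MDN1 rose by 0.60 ± 0.12 (adjusted p = 0.000733) and the RNA helicase gene MTR4 by 0.40 ± 0.07 (adjusted p = 0.000256). In the TOR kinase list of 10 genes, 4 rose and 1 fell, beside 27.0% and 26.5% of all genes. TOR itself rose by 0.61 ± 0.13 (adjusted p = 0.00112) and the S6 kinase genes AT3G08730 and AT3G08720 by 0.56 and 0.85, while AT5G13240, which encodes a protein with a Maf1 domain, fell by 1.02 ± 0.12 (adjusted p = 5.26e-06).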

How the data were processed

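Leaf RNA was selected with poly-T beads and sequenced as NEBNext Ultra libraries, per the labels' protocols. The authors deposited read counts per gene, not normalized; HISAT2 2.0.5 is named in the submitters' processing notes, while for the counter, strand setting, genome build and annotation the sources used here give nothing. All 249 genes have the same start and end in TAIR10.1 as in the deposited table. The strand being unknown, antisense and overlapping genes and near-identical paralogues are uncertain singly; 72 of the 249 overlap another gene.

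The counts of 20037 of 33024 genes passed edgeR's filterByExpr (minimum count 10, minimum total 15). Library sizes were scaled by TMM, and all 15 libraries entered 1 quasi-likelihood fit (edgeR 4.0.16, R 4.3.3, robust), with 10 residual degrees of freedom and Benjamini-Hochberg adjustment over all genes tested. CPM used the scaled sizes, with a prior count of 2 on the log2 scale. The edgeR fit was tried on simulated counts, for topp4-1 against wild type. Far fewer genes were changed there than were called in the real comparison. Alternatives were other size factors, other filters, a fit of only the libraries compared, DESeq2 1.42.0, a log2 change of at least 1, a replicate block and leaving out each library.

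Same-numbered libraries of the double mutant and pp1r3-2 deviated together (correlations 0.26, 0.22 and 0.45), a pairing hinted by the data and stated by no label; the block left 0 calls there. Between all other pairs of genotypes compared the correlations ran from -0.34 to 0.18.

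Compartment was read from gene descriptions and RefSeq product names, and the location of the proteins was not checked. The members and lists were chosen with earlier results of these data known. Genes are named by rule: per comparison the 6 highest and 6 lowest log2 fold changes among called members with at least 5 CPM, the 6 highest and lowest levels per length, members called against their compartment's direction, both paralogues of the 6 widest families, up to 5 members per compartment with the smallest adjusted p, RPS6A and RPS6B, and up to 5 genes per list. RPL3A, RPL3B and others outside this rule were chosen after their values were seen.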

Additional observations from a re-analysis of the deposited data

Results flagged for a closer look

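Each result here was picked because the effect of topp4-1 differed between the wild-type and pp1r3-2 backgrounds by the interaction term of edgeR's quasi-likelihood test, adjusted over all genes. The term was higher for 54 and lower for 5 of 230 genes, where 19.0% and 19.3% of all genes were called higher and lower. Plastid genes led the higher values, with RPL5 at 1.35, RPL11 at 1.32, RPL28 at 1.31, RPL35 at 1.30, RPL12C at 1.30 and RPL15 at 1.25. The 5 lower were RPS9C at -1.39, RPL18AA at -0.76, RPL7D at -0.70, RPS4B at -0.55 and RPL19C at -0.45. RPS4B was also called higher in topp4-1 against wild type (0.39 ± 0.11, adjusted p = 0.00732), as in pp1r3-2 and in the double mutant. Without 1 library the number higher ran from 34 to 119, the latter without the double mutant's replicate 3.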

How the results depend on the processing

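With a log2 change of at least 1 also required, the numbers of genes higher and lower were 0 and 0 in pp1r3-2, 1 and 17 in topp4-1, 0 lower in topp-7m, 0 and 0 in the double mutant against wild type, 8 and 1 in the double mutant against topp4-1, and 13 and 1 for the interaction. In pp1r3-2 the number lower was 1 with no filter, 6 with the replicate block and 7 with DESeq2. In topp-7m it was 3 when only the libraries compared were fitted and 15 with DESeq2. In the double mutant against wild type, fitting only the libraries compared gave 0 higher and 0 lower, and the replicate block gave 7 lower. The replicate block changed no count of the 230 genes in the other comparisons by over 1.5 times. Without 1 library the numbers higher and lower ran over 2 to 2 and 0 to 4 in pp1r3-2, 4 to 5 and 114 to 168 in topp4-1, 0 to 1 and 1 to 9 in topp-7m, 0 to 1 and 1 to 9 in the double mutant against wild type, 31 to 118 and 5 to 6 against topp4-1, and 34 to 119 and 5 to 5 for the interaction. RPS2B (AT1G58983) in topp4-1 gave between -0.13 and 0.31 without 1 library, and RPS15AD between -0.058 and 0.069, or -0.01 with a filter of 1 CPM; neither was called and the cause was not tested. Depth limits the weakest genes, such as the RPS2B copies under 1 CPM.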
